A study of Mus musculus with 20 samples.

Results

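Macrophages take up debris, modified lipoproteins and dying cells through a set of surface receptors. The 10 genes described here encode such scavenger and dead-cell uptake receptors and 1 ligand: Mrc1, Marco, Msr1, Cd36, Cd163, Stab1, Timd4, Mertk, Axl and Gas6. They were chosen by name, and all 10 were measured in the cultured macrophages, in a table of 15855 genes. The table of the tumor cells holds 15333 genes and 9 of the 10 (Marco was not analysed there). The study used mice, with scRNA-seq of 2 libraries of macrophages grown from bone marrow (BM) B cells (B-MF), 2 of macrophages grown from monocytes (Mo-MF) and 4 of tumor-associated macrophages (TAM). The B cells and the monocytes had each been kept for a week in medium conditioned by 4T1.2 cells, a mouse breast cancer line, so both cultures shared that exposure and no untreated macrophages were among the libraries used here. TAM had been sorted from the tumors of mice carrying 4T1.2 cancer. ATAC-seq, which maps open chromatin with a transposase, was done on sorted cells of untreated mice in 12 libraries, 3 each of BM CSF1R+, BM CSF1R-, spleen CSF1R+ and spleen CSF1R- cells. The labels call those sorted cells macrophages, whereas the study describes B-cell precursors. According to the methods the mice were young adult females, the B cells came from C57BL/CJ or BALB/CJ mice, as the methods spell them, and 4T1.2 tumors were grown in BALB/cJ mice or in µMT mice, which lack mature B cells. Which of these gave each library is not stated in the sources used here.

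Uptake receptors fall into a few families. MRC1 (CD206) is the mannose receptor, MARCO and MSR1 are class A scavenger receptors that bind polyanions and modified lipoproteins, and CD36 is a class B receptor for oxidized lipids and fatty acids. CD163 takes up haemoglobin bound to haptoglobin, and STAB1 binds modified lipoproteins and exposed phosphatidylserine. Dead cells are recognized by the phosphatidylserine they expose, either directly, as by TIMD4, or through a bridging ligand such as GAS6, which links phosphatidylserine to the receptor tyrosine kinases AXL and MERTK. Such clearance of dead cells is called efferocytosis and is a classical function of tissue macrophages.

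All values are corrected counts. The deposited values were converted back from natural logarithms of the corrected count plus 1, and the correction (SCTransform) had set the cells of a table to similar totals, so the depth before correction is unknown. The cultures held 5237 and 5326 B-MF cells and 4846 and 5389 Mo-MF cells with median totals of 18350 to 19469, and TAM held 2318 to 3180 cells a library with medians of 7651 to 8266. A cell with at least 1 corrected count of a gene is called positive. Csf1r, the receptor of M-CSF, was found in 99.6% of B-MF cells of both libraries and in 97.0% of Mo-MF cells of both libraries, but in 39.1% to 58.9% of TAM cells. Adgre1 (F4/80), a macrophage marker, was found in 97.0% to 98.6% of cultured cells and in only 13.4% to 21.0% of TAM cells (25.5% to 28.9% of the Csf1r-positive ones), and 52.6% to 78.8% of TAM cells held more than 10 counts of the neutrophil genes S100a8 and S100a9 together. The sorted TAM libraries thus held many cells without the macrophage label's markers, and TAM values are given below for Csf1r-positive cells and by marker class. In the cultures such S100a8/S100a9 cells were 3 and 1 in B-MF but 567 (11.7%) and 547 (10.2%) in Mo-MF. Cell barcodes were shared between libraries for 45 of 20753 barcodes in the cultures and 13 of 10872 in TAM.

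In the cultures, B-MF and Mo-MF were compared by limma on log2(mean corrected count of a library + 0.1) with Benjamini-Hochberg adjustment over 8633 genes with a mean of at least 0.1. A difference is B-MF minus Mo-MF on that scale. Where the groups are said not to overlap, the share of all genes without overlap was not counted. The labels do not say whether replicates were separate cultures, so p-values rest on the spread between these libraries only. In limma the spread of each gene is drawn toward a value shared by all genes. The SEs of the members tested were therefore alike (0.0491 to 0.0542), and a p-value does not measure the spread of 1 gene alone. Of the 10 members, 7 passed the filter. Mrc1, Stab1 and Gas6 were higher in B-MF, Axl and Mertk were lower, and Msr1 and Cd36 did not pass the test. Over all genes 22.6% were called higher and 16.9% lower. The median difference was 0.14 over the 7 members and 0.02 over all genes tested. Marco, Cd163 and Timd4 fell under the filter and are described by their counts.

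The promoter of Mrc1, a site inside that gene, the promoter of Gas6, the promoter of Cd36 and a site inside Stab1 are shown here because Mrc1, Gas6 and Stab1 had the largest gains in B-MF among the members tested while Cd36 did not differ, and because ATAC-seq peaks fell on all of these windows except the Mrc1 promoter. The sequences are those of RefSeq and GRCm38.p6 and are written 5′ to 3′ on the strand of the gene. Promoters run from 250 bases before to 50 after the RefSeq start, and 9 of the 10 members had a promoter entry (Msr1 is named only). Capitals mark a match, on either strand, to 1 of 4 short motifs: GAGGAA (the core bound by PU.1, written TTCCTC on the other strand), TGANTCA (AP-1), TTGCNNAA (C/EBP) and TGCTGA (the core of a MAF site, TCAGCA on the other strand). The Mrc1 promoter (chr2:14229164-14229463, + strand), the Mrc1 intronic site (chr2:14295407-14295706, + strand), the Gas6 promoter (chr8:13494486-13494785, - strand), the Cd36 promoter (chr5:17835847-17836146, - strand) and the Stab1 intronic site (chr14:31166124-31166410, - strand) read as follows.
Mrc1 promoter: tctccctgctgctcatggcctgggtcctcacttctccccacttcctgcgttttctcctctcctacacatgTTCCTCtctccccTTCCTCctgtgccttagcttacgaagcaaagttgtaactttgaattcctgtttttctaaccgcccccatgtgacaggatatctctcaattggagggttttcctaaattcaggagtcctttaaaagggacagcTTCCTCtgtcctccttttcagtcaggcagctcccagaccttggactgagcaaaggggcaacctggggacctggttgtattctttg
Mrc1 intron: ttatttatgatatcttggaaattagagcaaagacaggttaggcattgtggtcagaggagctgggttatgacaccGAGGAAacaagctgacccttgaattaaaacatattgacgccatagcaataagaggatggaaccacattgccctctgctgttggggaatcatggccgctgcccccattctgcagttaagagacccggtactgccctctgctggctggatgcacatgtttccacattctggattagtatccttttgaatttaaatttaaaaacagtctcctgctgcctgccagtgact
Gas6 promoter: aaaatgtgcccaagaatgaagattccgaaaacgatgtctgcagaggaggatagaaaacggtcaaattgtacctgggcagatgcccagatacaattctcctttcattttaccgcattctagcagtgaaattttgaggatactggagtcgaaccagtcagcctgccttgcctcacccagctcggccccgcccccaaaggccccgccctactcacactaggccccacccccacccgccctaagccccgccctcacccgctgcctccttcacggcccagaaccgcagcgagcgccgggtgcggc
Cd36 promoter: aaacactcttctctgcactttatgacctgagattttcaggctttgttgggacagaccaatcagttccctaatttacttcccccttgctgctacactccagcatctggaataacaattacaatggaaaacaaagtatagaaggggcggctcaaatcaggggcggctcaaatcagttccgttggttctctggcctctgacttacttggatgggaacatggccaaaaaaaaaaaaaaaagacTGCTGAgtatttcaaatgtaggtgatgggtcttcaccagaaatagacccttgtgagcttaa
Stab1 intron: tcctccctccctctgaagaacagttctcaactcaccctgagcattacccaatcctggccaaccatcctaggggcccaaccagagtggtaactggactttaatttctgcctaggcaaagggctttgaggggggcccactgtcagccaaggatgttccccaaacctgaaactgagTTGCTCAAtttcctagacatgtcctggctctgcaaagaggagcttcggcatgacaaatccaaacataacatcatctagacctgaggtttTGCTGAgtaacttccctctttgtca
The Mrc1 promoter held 3 matches to GAGGAA and its intronic site 1. Gas6 held no match, Cd36 held 1 to TGCTGA, and the Stab1 site held 1 to TTGCNNAA and 1 to TGCTGA. Among 32851 RefSeq promoters of the same length, GAGGAA was found in 28.3%, TGANTCA in 7.81%, TTGCNNAA in 10.8% and TGCTGA in 19.5%. A match is a description of the letters and not a binding site.

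Mrc1, the mannose receptor gene (chr2:14229392-14332057, + strand), was higher in B-MF. In B-MF its library means were 11.3 and 11.2 corrected counts per cell, and in Mo-MF they were 5.84 and 5.96. The groups did not overlap, and the 2 libraries of each differed little. The difference was 0.92 (SE 0.0494, 95% confidence interval 0.81 to 1.04, limma adjusted p = 3.59e-06), a 1.91-fold ratio of means. Nearly all cells were positive, 97.7% and 98.3% in B-MF against 92.8% and 93.1% in Mo-MF, so the gap lay in the level per cell. Cells with at least 10 counts were 50.2% and 50.7% of B-MF against 19.1% and 19.2% of Mo-MF. When each cell was thinned to 5000 counts the positive shares became 84.5% and 85.5% against 66.7% and 67.5%.

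Stab1, the stabilin gene (chr14:31139013-31168641, - strand), followed the same order. Its library means were 5.27 and 5.06 in B-MF against 2.43 and 2.40 in Mo-MF, without overlap. It was 2.14-fold higher in B-MF (difference 1.07, SE 0.0511, interval 0.95 to 1.18, limma adjusted p = 1.81e-06). Positive cells were 83.4% and 83.3% of B-MF against 74.1% and 74.6% of Mo-MF, and after thinning 57.1% and 57.5% against 38.5% and 38.7%.

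Gas6, the ligand (chr8:13465374-13494490, - strand), was also higher in B-MF. Library means were 11.9 and 11.5 in B-MF against 5.07 and 5.04 in Mo-MF, a 2.31-fold ratio (difference 1.19, SE 0.0507, interval 1.07 to 1.31, limma adjusted p = 8.84e-07). Cells with at least 10 counts made up 58.2% and 55.2% of B-MF against 14.4% and 13.4% of Mo-MF. The share of positive cells was near its ceiling in B-MF (99.1% in replicate 2) and 90.7% and 91.3% in Mo-MF. Csf1r, which is no member, was also higher in B-MF in the same fit (difference 0.91, limma adjusted p = 4.43e-06).

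The receptors that GAS6 bridges to moved the other way. Axl (chr7:25757273-25788705, - strand) had library means of 0.0630 and 0.0646 in B-MF against 0.327 and 0.312 in Mo-MF, and passed the filter on low values through Mo-MF. It was lower in B-MF by 1.36 on the log2 scale with the 0.1 added (difference -1.36, SE 0.0506, interval -1.47 to -1.24, limma adjusted p = 4.89e-07), and the mean was 5.01-fold higher in Mo-MF. Axl-positive cells were 4.09% and 4.06% of B-MF against 19.3% of Mo-MF replicate 2, and the Mo-MF replicates differed little. Mertk (chr2:128698956-128802894, + strand) differed far less, with means of 0.590 and 0.565 in B-MF against 0.688 and 0.673 in Mo-MF. Its difference was -0.20 (SE 0.0511, interval -0.32 to -0.09, limma adjusted p = 0.0145), a 1.18-fold higher mean in Mo-MF. Positive cells were 39.5% and 36.3% of B-MF against 41.5% and 41.6% of Mo-MF. The Mertk call was lost without either Mo-MF library (difference -0.19 and adjusted p = 0.183 without replicate 1, -0.22 and 0.108 without replicate 2), where the lone library is assumed to vary like the other group. The other alternatives gave an adjusted p of 0.000569 to 0.029.

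Msr1 and Cd36, receptors for modified lipoproteins and oxidized lipids, did not pass the test. Msr1 (chr8:39581685-39642673, - strand) had means of 4.95 and 4.99 in B-MF against 4.48 and 4.52 in Mo-MF. The groups did not overlap, but the difference was 0.14 (SE 0.0491, interval 0.03 to 0.25) with a limma adjusted p = 0.0527. That call changed with the processing, since 9 of 15 alternatives called Msr1 higher in B-MF (adjusted p from 7.4e-28 to 0.396). Positive cells were 95.3% and 96.7% against 88.8% and 89.0%. Cd36 (chr5:17781690-17888801, - strand) had means of 4.47 and 4.77 in B-MF against 4.72 and 4.79 in Mo-MF, so the groups overlapped. Its difference was -0.04 (interval -0.17 to 0.08, limma adjusted p = 0.572), and 0 of 15 alternatives called it. Its unadjusted p was 0.45.

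**Figure D1:**
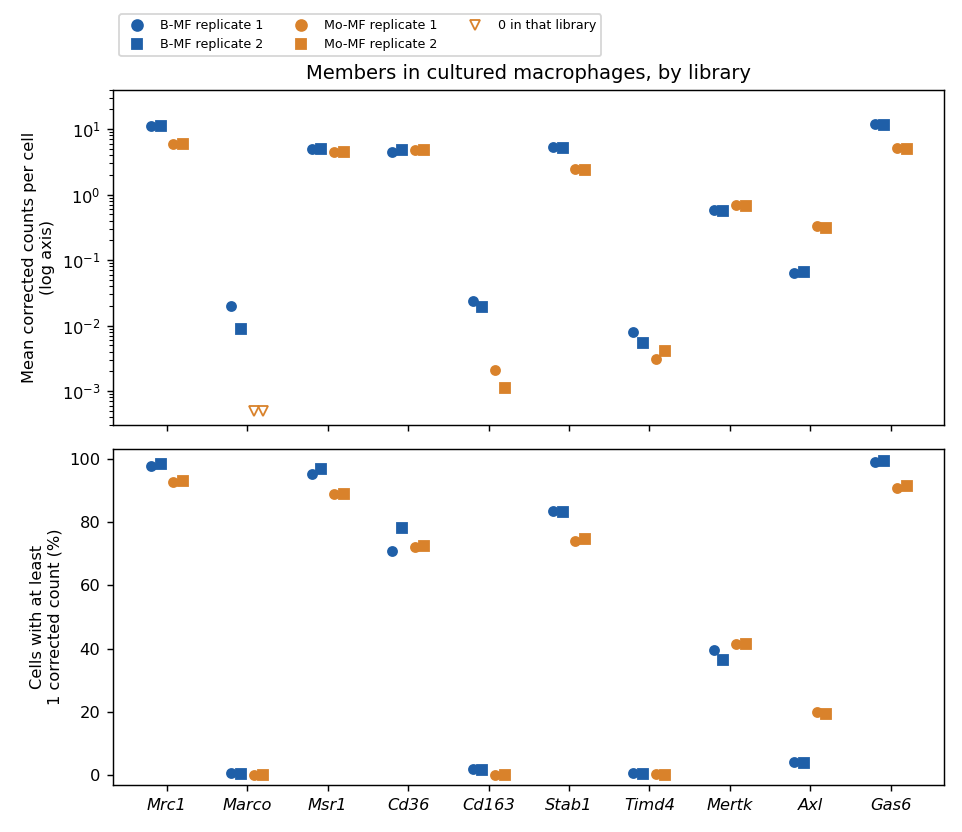
The upper panel plots the mean corrected count per cell (log axis) and the lower panel the percent of positive cells for the 10 member genes, with 1 point for each B-MF and Mo-MF replicate and open triangles for a library at 0. In the upper panel B-MF points lie above Mo-MF points for Mrc1, Stab1 and Gas6 (11.9 and 11.5 against 5.07 and 5.04 for Gas6) and below them for Axl.

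Marco, Cd163 and Timd4 were rare in both cultures. Marco (chr1:120474538-120505024, - strand) gave 151 counts in 51 of 10563 B-MF cells, 0.611% of replicate 1 (95% Clopper-Pearson interval 0.418% to 0.862%) and 0.357% of replicate 2 (0.215% to 0.557%). In Mo-MF 0 of 10235 cells were positive, which allows a share of up to 0.0619% in replicate 1 and 0.0557% in replicate 2 by the limit of 3 counts, or 0.0761% and 0.0684% by the Clopper-Pearson interval. Against a floor of 3 counts over the 2 Mo-MF libraries, the ratio of B-MF to Mo-MF was 48.8 (67.1 from replicate 1 alone and 30.7 from replicate 2 alone). That floor takes counts as independent, whereas the 151 counts lay in 51 cells, so these ratios are not firm lower bounds. Intervals and floors cover counting error only. Cd163 (chr6:124304656-124330527, + strand) was found in 2.10% and 1.71% of B-MF cells and in 0.165% and 0.0928% of Mo-MF cells. Its sums were 226 counts in 201 B-MF cells and 16 counts in 13 Mo-MF cells, 13.7 times more per cell. Without a filter on low values, where 12.1% of 15855 genes were higher, limma called Cd163 higher (difference 0.26, adjusted p = 0.0113) but not Marco (0.19, adjusted p = 0.102) or Timd4 (0.04, adjusted p = 0.261). Timd4 (chr11:46810800-46844332, + strand) was found in 0.745% and 0.469% of B-MF cells and 0.289% and 0.278% of Mo-MF cells.

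**Figure D2:**
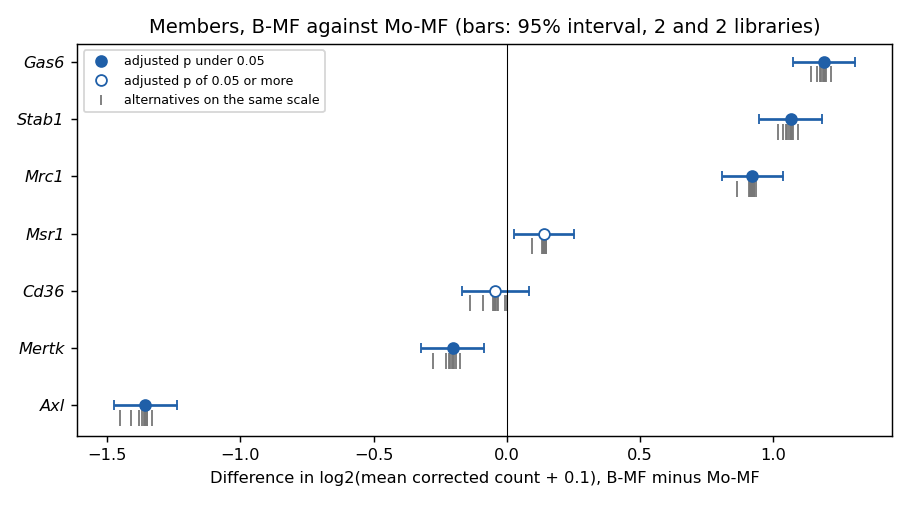
Difference B-MF minus Mo-MF on the log2(mean + 0.1) scale for each member tested, with bars for the 95% confidence interval from limma, filled points for an adjusted p under 0.05 and grey ticks for the alternative settings on that scale. Gas6, Stab1 and Mrc1 lie near 1 (1.19, 1.07 and 0.92), Cd36 at -0.04 and Axl at -1.36.

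Some of these values moved with cells that carried other markers. Mo-MF cells with more than 1000 counts of S100a8 and S100a9 numbered 201 and 189. Of those, 86.6% and 86.2% were positive for Mrc1 at means of 2.44 and 2.58, and 11.9% and 7.9% for Mertk. Their Mrc1 means were thus under the library means. With cells of at most 10 such counts only, an alternative chosen after seeing the data, the Mrc1 difference was 0.87, Stab1 1.02, Gas6 1.14 and Axl -1.41, and Mertk moved to -0.28 (limma adjusted p = 0.00407). In the same cells Msr1 was at 0.09 (adjusted p = 0.167) and Cd36 at -0.14 (adjusted p = 0.0756), neither of them called. In B-MF, 564 of the 674 Axl counts lay in the 10118 macrophage-marker cells, of which 398 were Axl-positive, and 95 lay in 19 cells with fibroblast markers. These 19 cells, all of them in B-MF, were Axl-positive in 18 cases, and 1 of them was positive for Mrc1, 1 for Gas6 and 0 for Msr1. All 19 were Csf1r-negative, and the other 22 Csf1r-negative B-MF cells held 0 Axl counts. The 305 Csf1r-negative Mo-MF cells had Cd36 means of 7.87 and 9.01, above the 4.63 and 4.66 of Csf1r-positive Mo-MF cells.

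Other genes of dead-cell uptake showed both directions in the cultures. Of 32 genes listed (bridging molecules, integrins, engulfment adaptors and lipid sensors), 25 were tested, 9 were higher, 12 lower and 4 neither, with a median of -0.12. These were 36% higher and 48% lower, against the 22.6% and 16.9% of all genes. The 3 chains of complement C1q, which bridges dead cells to phagocytes, were higher in B-MF, with C1qa at 21.8 and 20.3 against 10.7 and 10.5 counts (difference 0.98, limma adjusted p = 4.82e-06), C1qc at a difference of 0.96 and C1qb of 0.82. Mfge8, which bridges phosphatidylserine to integrins, was lower, at 1.94 and 1.90 in B-MF against 9.24 and 10.3 in Mo-MF (difference -2.28, limma adjusted p = 1.01e-07). Bridging molecules therefore did not move together. Anxa1, a phospholipid-binding annexin, and Thbs1, a thrombospondin, were lower too (differences -1.07 and -0.94).

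Abcg1 (-0.73) and Abca1 (-0.17), which encode cholesterol exporters, and Nr1h3 (-0.66), which encodes the sterol receptor LXR alpha, were lower in B-MF, while Scarb1, a receptor for high-density lipoprotein among the further receptors counted next, was higher (0.38). Lrp1 (0.57), a receptor that pairs with C1q and calreticulin, and Stab2 (0.56), the paralogue of Stab1, were higher. Of the engulfment adaptors, Dock1 (0.42) and Elmo1 (0.24) were higher and Crk (-0.21) was lower, and the difference of Rac1, a GTPase downstream of them, was -0.03 (limma adjusted p = 0.643). Pros1, which encodes another ligand of MERTK, was also higher (0.22). Of 22 further scavenger and pattern receptors 13 were tested, 7 were higher, 4 lower and 2 neither, with a median of 0.15 (53.8% higher and 30.8% lower). Cd14, a receptor for bacterial lipopolysaccharide, had means of 10.9 and 10.1 against 5.34 and 5.45 (difference 0.95). Clec10a, a galactose lectin, and Trem2, a lipid receptor, were higher by 0.61 and 0.50, and Scarf1, Cxcl16 and Scarb2 were lower (-1.29, -0.94 and -0.33). Stab2 passed the filter on low values through B-MF and Scarf1 through Mo-MF.

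In the tumors, member genes were compared between Csf1r-positive cells and the others within each library, as a description, because Csf1r of the same cells made the split. TAM libraries are named by the numbers 2 to 5 of the deposited columns. Of the 9 members measured, 6 had means at least 2-fold higher in Csf1r-positive cells in all 4 libraries: Mrc1, Msr1, Stab1, Mertk, Axl and Gas6. Over 10740 genes with a mean of at least 0.01, 14.2% did. Csf1r-positive cells had slightly larger totals, with medians of 8359 to 8468.5 against 7498 to 7556.5. Removing neutrophil-, B-, T- and NK- and dendritic-marker cells left 3560 of 5159 Csf1r-positive and 1223 of 5726 other cells. Fibroblast-marker cells stayed in. Of the 9 members, 2 then met the rule, Mrc1 (ratios 2.70 to 4.34) and Stab1 (2.16 to 3.0), against 0.503% of the 10740 genes. With Csf1r-positive set at 2 counts, Cd163 entered and Axl did not meet the rule (1.96 in library 4), which left 6 members against 6.44% of genes.

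Msr1 was found in 80.5%, 59.7%, 73.8% and 66.7% of Csf1r-positive TAM cells of libraries 2, 3, 4 and 5, and in 30.3%, 17.5%, 21.2% and 20.2% of the others. Mrc1 was found in 31.9%, 16.1%, 21.4% and 18.8% of Csf1r-positive cells against 8.72%, 3.61%, 5.53% and 3.73%. Its mean counts were 1.61, 0.648, 0.832 and 0.843 against 0.263, 0.085, 0.137 and 0.118, ratios of 6.09 to 7.62. In each library the Csf1r-positive cells were higher for both genes, and library 2 was the highest of the 4. Stab1 was found in 24.9%, 18.0%, 16.7% and 17.0% against 5.66%, 3.82%, 3.24% and 3.73%.

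The efferocytosis kinases and their ligand were less often found. Axl was found in 11.3%, 4.64%, 9.54% and 5.72% of Csf1r-positive cells (ratios of means 2.55 to 4.23 over the other cells), Mertk in 7.91%, 4.30%, 8.11% and 5.0% (ratios 3.47 to 6.99), and Gas6 in 6.30%, 2.98%, 3.21% and 3.73% (ratios 2.56 to 3.69). All 3 genes were thus in a minority of Csf1r-positive TAM cells in every library. Cd36 was found in 7.1%, 2.21%, 4.28% and 1.91% (ratios 1.58 to 2.94) and Cd163 in 2.51%, 1.55%, 0.713% and 1.59% (ratios 1.77 to 11.5). Without neutrophil-, B-, T- and NK- and dendritic-marker cells, ratios were 0.850 to 1.83 for Axl and 1.32 to 3.01 for Mertk. They were 0.863 to 3.39 for Gas6 and 0.743 to 1.44 for Cd36. Cd163 was then at 4.22, 0.841 and 1.99 in libraries 2, 4 and 5, and library 3 had a mean of 0 in the other cells. Timd4 had no single order. Its share was 3.74%, 0.662%, 3.57% and 1.99% in Csf1r-positive cells against 2.83%, 0.637%, 2.06% and 2.24% in the others. Its mean was lower on the Csf1r-positive side in libraries 2, 3 and 5 (0.142 against 0.155, 0.0121 against 0.0489 and 0.0969 against 0.102) and higher in library 4 (0.238 against 0.0933).

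The tables of cultures and tumors were normalized separately, and no test was made between them. Set side by side after thinning to 5000 counts, Gas6 was found in 89.3% and 89.1% of Csf1r-positive B-MF cells, 64.1% and 64.7% of Csf1r-positive Mo-MF cells and 2.12% to 4.48% of Csf1r-positive TAM cells. Mrc1 was found in 84.7% and 85.6%, 67.1% and 67.8%, and 13.1% to 27.1%. Cd36 was found in 44.8% and 49.4%, 45.2% and 45.6%, and 1.37% to 5.41%. Msr1 was found in 66.9% and 68.3%, 59.1% and 59.5%, and 50.4% to 73.1%. Axl was found in 1.25% and 1.33%, 7.39% and 7.05%, and 3.02% to 7.66%. The cells compared differed in make-up. Macrophage markers were carried by 90.1% of all cultured cells. Of the 5159 Csf1r-positive TAM cells, 3560 lay outside the neutrophil, B, T and NK and dendritic classes. In macrophage-marker TAM cells, without thinning, Gas6 was found in 12.9% to 18.4% and Mrc1 in 33.0% to 58.9% by library.

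**Figure D3:**
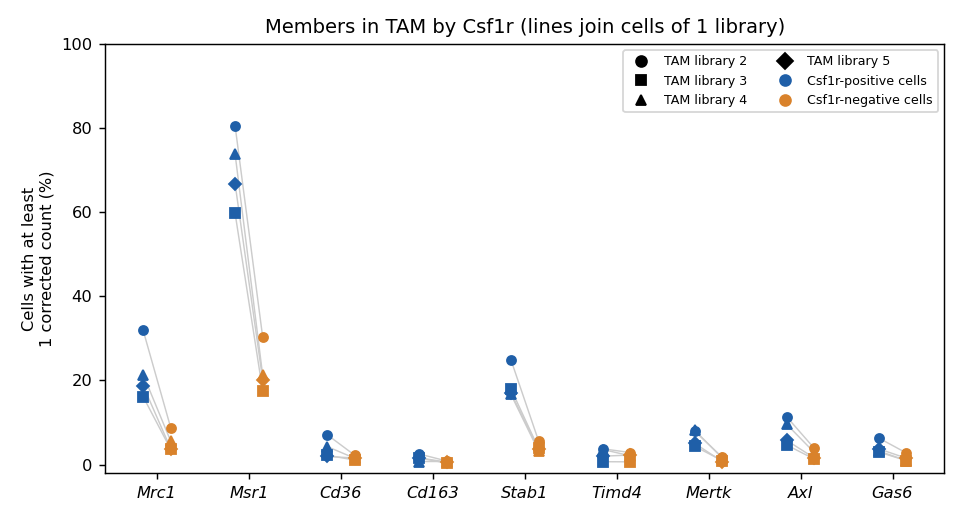
Share of cells positive for each of the 9 members in Csf1r-positive and Csf1r-negative TAM cells, in percent, with 1 point for each of the 4 libraries and lines joining the cells of a library. Msr1 reaches 59.7% to 80.5% and Mrc1 16.1% to 31.9% in Csf1r-positive cells, and the points of Timd4 overlap.

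By markers, 1081 TAM cells carried macrophage genes (C1qa, C1qb, C1qc, Apoe and Ms4a7), 1950 monocyte genes, 5754 neutrophil genes and 88 dendritic cell genes, 193 were B-cell-marker cells, 67 T- and NK-marker cells and 14 fibroblast-marker cells, and 1737 were in no class. The classes are ranges of marker counts and not cell types, and 536 to 974 cells a library lay near the limit of a class. Macrophage-marker cells were 18.0%, 4.36%, 7.83% and 7.37% of libraries 2 to 5. They held 52.4%, 39.3%, 28.6% and 44.2% of the Mrc1 counts and 68.2%, 40.6%, 57.3% and 47.1% of the Gas6 counts.

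Mrc1 was found in 540 of the 1081 macrophage-marker cells (33.0% to 58.9% by library), in 14.8% of monocyte-marker cells (13.2% to 15.4%) and in 5.13% of neutrophil-marker cells. Median totals of these classes were 8269, 8601 and 7530. The source of member counts in neutrophil-marker cells was not tested. As a ratio of shares, Gas6 differed most between macrophage and monocyte markers, at 16.1% (12.9% to 18.4%) against 0.564%. The latter was no higher than the 0.886% of neutrophil-marker cells. Axl was found in 25.3% (15.8% to 30.5%), 2.67% and 1.48% of these 3 classes. Msr1 did not follow that order, at 83.7% (74.3% to 88.6%) of macrophage-marker and 88.8% (84.9% to 90.9%) of monocyte-marker cells, against 20.6% of neutrophil-marker cells. Stab1 was intermediate, at 28.3%, 21.2% and 4.52%. Mertk was found in 11.6%, 6.0% and 1.22%, and Cd163 in 4.81%, 0.769% and 0.487%.

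Some members were also found in cells with markers outside the macrophage, monocyte and neutrophil classes. Axl was found in 14 of 14 fibroblast-marker cells, as it was in 18 of the 19 of the B-MF cultures, and Gas6 in 3 of the 14. Cd36 was found in 9.84% of B-cell-marker cells and 7.4% of macrophage-marker cells, with overlapping library ranges. Timd4 was found in 39.8% of the 88 dendritic-marker cells, against 3.52% of macrophage-marker and 0.817% of neutrophil-marker cells. Among the 1737 cells in no class it was found in 6.51%. By number, 113 Timd4-positive cells were in no class and 35 in the dendritic class. By library the dendritic-marker share was 13 of 27, 1 of 18, 8 of 17 and 13 of 26, so library 3 lay far under the other 3. Among all TAM cells of libraries 2 to 5, Ccr7, a chemokine receptor of migrating dendritic cells, was found in 31.8%, 26.7%, 33.3% and 40.6% of Timd4-positive cells against 2.18%, 3.56%, 3.88% and 4.80% of the rest. Ccr7 is 1 of the 5 genes that define the dendritic class, so these shares are not independent of the class result.

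**Figure D4:**
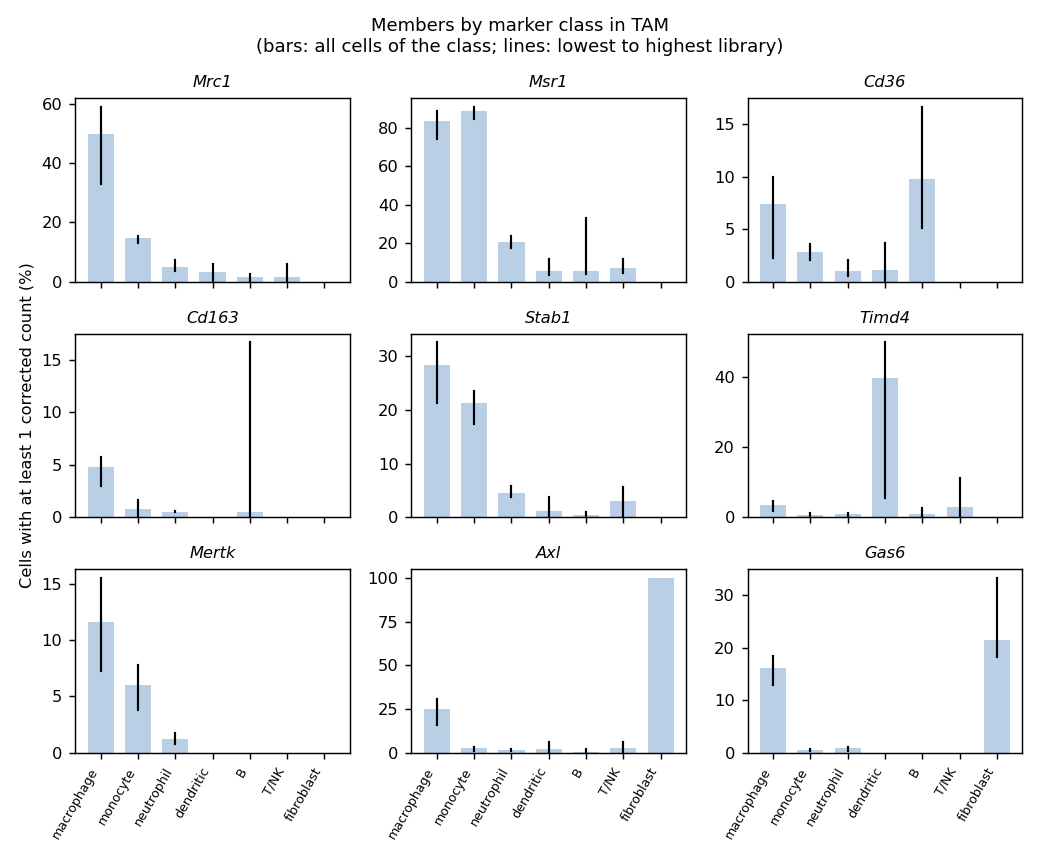
Share of cells positive for each of the 9 members, in percent, in marker classes of TAM cells, with bars for all cells of a class and lines from the lowest to the highest library. Each panel has its own scale, and cells in no class are not drawn. Gas6 is at 16.1% in macrophage-marker cells and 0.564% in monocyte-marker cells, Msr1 is high in both, and Timd4 peaks at 39.8% in dendritic-marker cells.

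Within Csf1r-positive TAM cells some members were found together. C1qa was present in 92.4%, 88.9%, 86.1% and 80.9% of Gas6-positive cells and in 32.7%, 21.7%, 24.0% and 23.3% of Gas6-negative ones. As C1qa is among the macrophage markers, this is not independent of the class shares of Gas6. Mrc1 was present in 83.0%, 85.7% and 100% of the 47, 14 and 8 Cd163-positive cells of libraries 2, 3 and 4 and in 12 of the 20 of library 5, against 15% to 30.6% of the rest. Cells of 1 library share its depth and its ambient RNA, so these shares are a description. Likeness was the Pearson correlation across cells within a library, averaged over the 4 libraries of 906 to 1872 Csf1r-positive cells. Only genes found in at least 5% of those cells in every library were compared. Among them the gene most like Mrc1 was Dab2, an endocytic adaptor (r = 0.494, 0.447 to 0.538 by library), then Pf4 (0.493) and Nxpe5 (0.431). Stab1 was most like Mrc1 (0.329), and Msr1 was most like the protease Ctsc (0.596), then Ms4a6d (0.574) and Lgals1 (0.553).

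Across the 5237 and 5326 B-MF cells, Mrc1 was again most like Dab2 (0.439), then Gas6 (0.358). Gas6 in turn was most like Mrc1, then Selenop, a secreted selenoprotein (0.349), and Lgmn, a lysosomal protease (0.317). Cd36 followed another set, the elastase Mmp12 (0.645), the lipoprotein lipase Lpl and the peroxiredoxin Prdx1 (0.524), and its correlation with Mrc1 was -0.143. Msr1 was most like Ccnd1, a cyclin (0.359), and Lpl (0.301). Mertk had no close partner, its highest being Slc40a1, the iron exporter, at 0.125.

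ATAC-seq peaks at the member genes were read in the 12 libraries of sorted BM and spleen cells, which are precursors by the study's account and not the cultured macrophages. The lists held 65832 to 76530 peaks in BM CSF1R+, 67890 to 73304 in BM CSF1R-, 49123 to 50392 in spleen CSF1R+ and 43407 to 48893 in spleen CSF1R- cells, so BM lists were longer. Within 1 kb of the annotated start, 3 of the 10 members had a peak in at least 1 library, against 61.1% of 21911 genes. Mertk had one in 11 libraries, 6 of BM and 5 of spleen. Gas6 had one in each of the 6 BM libraries and in 2 of spleen, both CSF1R-. Marco had one in 4 spleen libraries, 3 of them CSF1R+, and in none of BM (chr1:120504123-120504375, in an intron). The annotated starts of Mrc1, Msr1, Cd36, Cd163, Stab1, Timd4 and Axl had none.

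Within the gene body, 9 of 10 members had a peak in at least 1 library, against 72.3% of genes. Only Timd4 had none. Mrc1, Msr1 and Cd36 had one in all 12 libraries although their annotated starts had none. At Mrc1 the highest value was at the intronic site shown above (chr2:14295252-14295909), 66188 bases from the start. Its fold enrichment was 21.0 to 28.8 over the 12 libraries, and another intronic region reached 17.3 to 24.3. That other region was the stronger in BM CSF1R+ replicate 3 (22.3 against 21.7) and spleen CSF1R+ replicate 3 (21.5 against 21.0). For Cd36 the RefSeq start lies inside the longer annotated gene, and a peak fell on the promoter shown above in all 12 libraries. At Msr1 an intronic region (chr8:39594573-39595320), picked after its values were seen, had a fold enrichment of 4.80 to 6.18 in BM and 14.7 to 17.9 in spleen. Other regions at Mrc1 and Msr1 also had higher values in each spleen library than in any of BM. Some regions lacked a peak in part of the libraries. Where called, values were higher in BM at a Cd163 region (10.2 to 14.8 against 4.27 to 6.47). The same held at the Gas6 start (9.26 to 14.4 against 5.15 and 5.34). Where called, they were higher in spleen at regions of Cd36 and Marco. The share of all regions with such patterns was not counted. Peak heights were not tested, since the lists hold no counts.

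Other regions were present in BM only. Of 43 peak regions in or within 1 kb of members, 7 were called in each of the 6 BM libraries and in none of spleen, against 11.2% of 101333 regions of the whole set. Stab1 held 3 of the 7, and Mrc1, Cd36, Cd163 and Gas6 held 1 each. All peaks of Stab1 were from BM, a pattern (a peak in all 6 BM and no spleen libraries) that 3.9% of genes showed. The nearest to its start was the intronic region whose shared bases are printed above (chr14:31165991-31166666), 2313 bases from the start, with fold enrichments of 4.73 to 11.9. Between CSF1R+ and CSF1R- cells of BM, 2 of the 43 regions were called in each of the 3 CSF1R+ libraries and in no CSF1R- library, against 0.613% of all regions. They lay at the efferocytosis kinases, 1 in Mertk across an exon edge (chr2:128771099-128771363, fold enrichment 4.05 to 5.73) and 1 in an intron of Axl (chr7:25781411-25781789, 5.03 to 5.25). The lists give no value where no peak was called, so a missing peak in CSF1R- cells does not show closed chromatin.

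**Figure D5:**
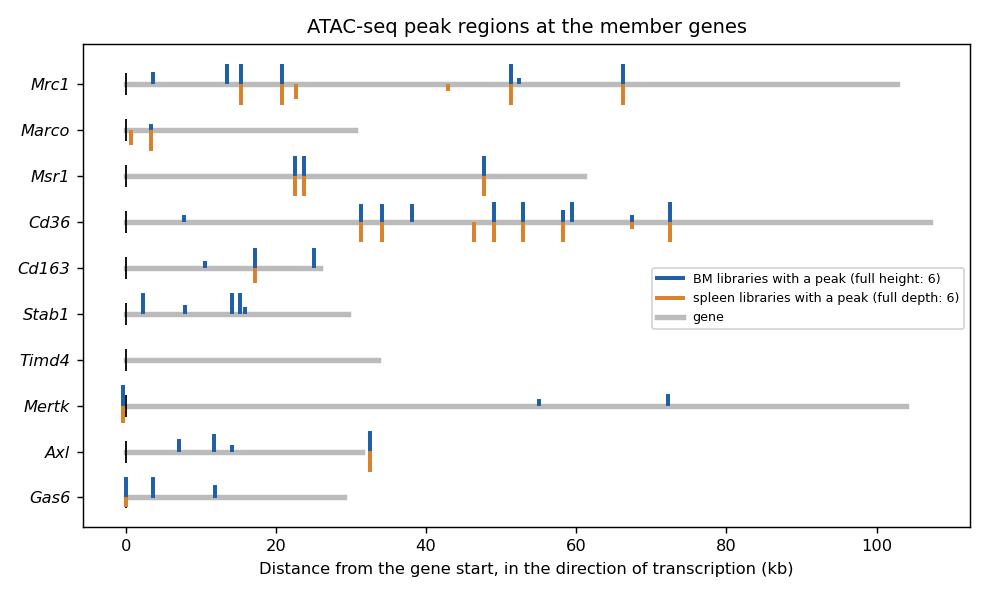
ATAC-seq peak regions at each member, by distance in kb from the annotated gene start in the direction of transcription, with bars up for BM libraries with a peak and bars down for spleen libraries (full height 6). Mrc1, Msr1 and Cd36 carry regions in both tissues away from the annotated start, Stab1 regions are in BM only and Timd4 has none. For Cd36 a region lies on the RefSeq promoter, inside the annotated gene.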

How the data were processed

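The samples were 2 B-MF, 2 Mo-MF and 4 TAM scRNA-seq libraries and 12 ATAC-seq libraries, grouped by the labels. The authors sequenced cells on a droplet platform, counted them with Cell Ranger, kept cells above a minimum of detected genes, and normalized each table by SCTransform. The deposited scRNA-seq values are natural logs (ln) of the corrected count plus 1, and the inverse was whole within 1e-06. No sources used here describe removal of doublets, and none was done. For ATAC-seq the authors trimmed reads with cutadapt, aligned them with BWA to mm10 and called peaks in each library with MACS2. The deposited peak lists give positions, a fold enrichment (a ratio) and −log10 p-values and q-values, with no read counts, and the depth of single libraries is not given in the sources used here.

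Library means of corrected counts were compared as log2(mean + 0.1) by limma (3.58.1, in R 4.3.3) with Benjamini-Hochberg adjustment over all genes with a mean of at least 0.1, at an adjusted p of 0.05. Cells of 1 library were never treated as replicates. Marker classes needed at least 3 markers found. Other steps used Python 3.11.15 with numpy 2.4.6, scipy 1.17.1 and pandas 2.3.3, and matplotlib 3.10.9. Peaks that shared a base were joined into regions across libraries, and gene positions are those of GRCm38. All 10 members were named. From the lists of further uptake and scavenger genes, those with the largest differences in each direction were named, and Abcg1, Abca1, Nr1h3, Lrp1, Stab2, Dock1, Elmo1, Crk, Rac1, Scarb1 and Pros1 were added for their roles after their values were seen. Genes like a member were the 3 with the highest correlation, among genes found in at least 5% of the cells of every library compared. Members and lists were chosen with earlier results of these data known. Alternatives covered the pseudocount, the filter, the scaling, the cells that entered and each left-out library.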

Additional observations from a re-analysis of the deposited data

Results flagged for a closer look

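Among the 4 TAM libraries, library 2 lay apart from the other 3 for Stab1 and Cd163 by Dixon's test. In 5 of 54 such checks the highest library was past the 95% limit. Chance gives about 1 in 20 for independent checks. These checks shared genes, libraries and cells, so the count cannot be set against that rate. Library 2 was the highest in all 5. The mean of Stab1 over all cells was 0.268 there against 0.137 to 0.147 in the others, with 17.0% of all cells positive against 9.3% to 9.55%. In Csf1r-positive cells 24.9% were positive for Stab1 against 16.7% to 18.0%, and in Csf1r-negative cells its mean was 0.101 against 0.0522 to 0.0567. The mean of Cd163 over all cells was 0.0868 against 0.0273 to 0.0323. Library 2 also held the largest shares of Csf1r-positive cells (58.9% against 39.1% to 47.0%) and of macrophage-marker cells (18.0% against 4.36% to 7.83%). The part of these shares in the values over all cells was not tested.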

How the results depend on the processing

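Mrc1 (0.87 to 0.94), Stab1 (1.02 to 1.09), Gas6 (1.14 to 1.22) and Axl (-1.45 to -1.33) kept direction and call under every alternative run on the same scale. Cd36, never called, turned to 0.029 with means of ln values and ranged from -0.0887 to 0.0025 when 1 library was left out (0.0025 without B-MF replicate 1), its lowest value being -0.14 with cells of at most 10 S100a8 and S100a9 counts. Without a filter on low values 5 members were higher (Cd163 and Msr1 besides Mrc1, Stab1 and Gas6), as were 12.1% of 15855 genes. With a minimum mean of 0.5, 951 of 4045 genes (23.5%) and 1 of 6 members (Mertk) were lower, Axl not being tested. At that setting 4 members were higher (Msr1 besides Mrc1, Stab1 and Gas6), as were 1697 of the 4045 genes. Leaving out 1 library gave 1103 to 3859 genes higher, 913 to 2934 lower, 3 to 4 members higher and 1 to 2 lower. The counts were 2271 higher and 2934 lower without B-MF replicate 1, 3859 higher without B-MF replicate 2, and 1129 and 1103 higher and 913 and 1055 lower without Mo-MF replicates 1 and 2. The replicate block gave 2238 genes higher and 1670 lower, with 3 and 2 members. With only 2 pairs and a correlation of 0.126 between same-numbered deviations over 8633 genes, the numbers were not taken to pair the samples.

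In TAM the 6 members at least 2-fold higher in Csf1r-positive cells became 2 without neutrophil-, B-, T- and NK- and dendritic-marker cells (0.503% of genes). With cells of at most 10 S100a8 and S100a9 counts, an alternative chosen after seeing the data, they were also 2 (0.782% of genes). These were Mrc1, and Cd163 against a mean of 0 in libraries 3 and 4. Leaving out 1 library gave 6 to 7 members, and the share of all genes that met the rule was not counted there. Members with a peak near the start numbered 5 of 10 within 5 kb, against 70.0% of 21911 genes. The causes were not tested. Of the shares of positive cells, 47 of the values under thinning or a limit of 2 counts moved by more than the spread between libraries and 11 did not. The 2 libraries a group and rare members limit what could be shown.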
